A study of Mus musculus with 24 samples.

Results

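Cdx2 occupancy was compared between proximal and distal mouse colon organoids kept in medium with all stem cell niche factors, using 6 Cdx2 peak lists out of the 12 that the series holds. The members were the 3 proximal and the 3 distal libraries labelled WENR-plus and Cdx2, among 24 samples in all. Peaks of these 6 lists that overlapped by at least 1 bp on chromosomes 1 to 19 and X were merged into 53508 regions. Each region was described by the libraries that called it and by the percentile of its fold within each list.

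All organoids carried a heterozygous Cre-inducible BrafV600E allele together with a heterozygous tdTomato reporter and came from 2-month-old animals. Without Cre neither allele is switched on, and the ChIP-seq labels list no Cre treatment. Organoids from 3 mice were grown for 4 months in WENR-plus medium, which supplies Wnt3a, EGF, Noggin and R-spondin, and both sites share this history. The WENR-minus libraries used below came from organoids of the same 3 mice kept for 2 days in WENR-plus medium and then for 3 days without the factors. An organoid culture holds epithelium only, so the wall, vessels and immune cells of the colon are missing from the model. Which libraries came from the same mouse is not stated.

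Cdx2 is a homeodomain transcription factor that specifies intestinal epithelium and stays on in the adult gut, where it binds enhancers and promoters of absorptive and secretory genes together with factors such as Hnf4 and Gata proteins. Its preferred site is an AT-rich core. The letters searched on both strands were TTTATGG and TTTATGA as well as TTTATTG and TTTATTA. Hox genes, which share ancestry with Cdx genes, carry the record of position along the gut and are classic Cdx targets in the embryo. Proximal and distal colon are of different embryonic origin, midgut and hindgut.

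The sequences under some of the leading peaks of each site are shown first, to show the Cdx2 cores that are counted below. Each is the 101-base window centred on the summit, on the plus strand of GRCm38 (mm10), with Cdx2 cores in capitals on either strand. The first group was called in 3 of 3 proximal and 0 of 3 distal libraries when all lists were cut to the same length.
Hoxb4, chr11:96316396-96316496: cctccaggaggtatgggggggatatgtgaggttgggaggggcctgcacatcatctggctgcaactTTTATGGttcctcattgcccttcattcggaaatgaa
Apol10a, chr15:77474952-77475052: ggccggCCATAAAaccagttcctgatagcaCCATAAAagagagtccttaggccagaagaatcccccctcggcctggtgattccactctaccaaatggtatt
Fmn1, chr2:113311304-113311404: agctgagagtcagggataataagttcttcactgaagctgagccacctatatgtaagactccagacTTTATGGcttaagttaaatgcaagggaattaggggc
Defb37, chr8:18991212-18991312: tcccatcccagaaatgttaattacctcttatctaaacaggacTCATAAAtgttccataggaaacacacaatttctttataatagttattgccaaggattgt
The second group was called in 3 of 3 distal and 0 of 3 proximal libraries at equal length.
Crnn, chr3:93162632-93162732: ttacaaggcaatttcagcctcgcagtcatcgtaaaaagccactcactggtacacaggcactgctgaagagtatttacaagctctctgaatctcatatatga
Cyp11a1, chr9:57999465-57999565: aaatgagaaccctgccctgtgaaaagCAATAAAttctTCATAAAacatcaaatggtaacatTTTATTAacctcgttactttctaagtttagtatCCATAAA
Casd1, chr6:4612669-4612769: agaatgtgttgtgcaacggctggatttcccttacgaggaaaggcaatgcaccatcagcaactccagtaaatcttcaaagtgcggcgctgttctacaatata
Muc16, chr9:18561259-18561359: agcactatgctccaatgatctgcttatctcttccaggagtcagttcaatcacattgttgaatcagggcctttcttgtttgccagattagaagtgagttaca

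The gene beside each window is the one with the nearest protein-coding start site. None of these windows meets an annotated exon. The windows shown are only a part of the 8 leading regions of each class, so their share with a core is not that of the class. Among all 8 of each class, 6 proximal and 2 distal windows hold a core. Of those not shown, the proximal windows of Lingo2 and Il12rb2 hold no core, while those of Auts2 and Adam18 do. The distal window of Wdr11 holds a core, while those of Ergic2, Taf2 and Hsfy2 do not.

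The files are peak lists and hold no read counts, so the depth behind each peak is not known from them. The study's reporting summary lists a greater sequencing depth for every proximal than for every distal library compared here. It also lists a larger share of reads in peaks for every proximal library. The part of depth and enrichment in the counts below was not tested. The proximal lists held 32021, 42177 and 13587 peaks in replicates 1 to 3, and the distal lists 7371, 13362 and 5604. Each proximal list was longer than each distal list of the same replicate number, and distal list 2 nearly reached proximal list 3. Median fold was 5.02 to 6.26 in the proximal and 6.20 to 6.57 in the distal lists, and these ranges overlapped. Because a longer list includes weaker peaks, the numbers of regions by class are given for the full lists and for lists cut to their 5604 most significant peaks. Ranks of the classes, region counts per gene and copies of the repeated sequence refer to the full lists. That cut kept 13.3% to 41.3% of each proximal list and 41.9% to 100% of each distal list. The weakest peak kept had a −log10 p of 20.9 in proximal replicate 2 and of 5.36 in distal replicate 3, so equal length is not equal strength.

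Most regions of the full lists were seen in few libraries. A single proximal library called 25057 regions that no other library had, 46.8% of the total, and a single distal library 1599. All 6 libraries called 2911 regions. Regions called in 3 of 3 proximal and 0 of 3 distal libraries, proximal-only from here, numbered 2885, or 5.39% of merged regions. The reverse class, distal-only, held 93 regions, or 0.174%. Both counts rested on which libraries had to agree: leaving out replicate 3 of both sites gave 12160 and 174, leaving out replicate 2 gave 5013 and 146, and leaving out replicate 1 gave 3930 and 288.

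At equal length the asymmetry between the sites shrank. The 6 shortened lists merged into 12054 regions, of which 1624 were called in all 6. Proximal-only regions numbered 345, or 2.86%, and distal-only regions 223, or 1.85%. Of the 345 proximal-only regions, 210 were absent from all 3 full distal lists. None could be in all 3 of them, because the list of distal replicate 3 was kept whole at equal length. Of the 223 distal-only regions, 43 were absent from the full proximal lists, while 109 were in all 3 of them. The cut kept 13.3% to 41.3% of each proximal list and 41.9% to 100% of each distal list. The counts of the 2 classes are thus not on the same footing. Many regions missing from the shortened lists of a site thus had a peak of lower rank in its full lists.

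**Figure D1:**
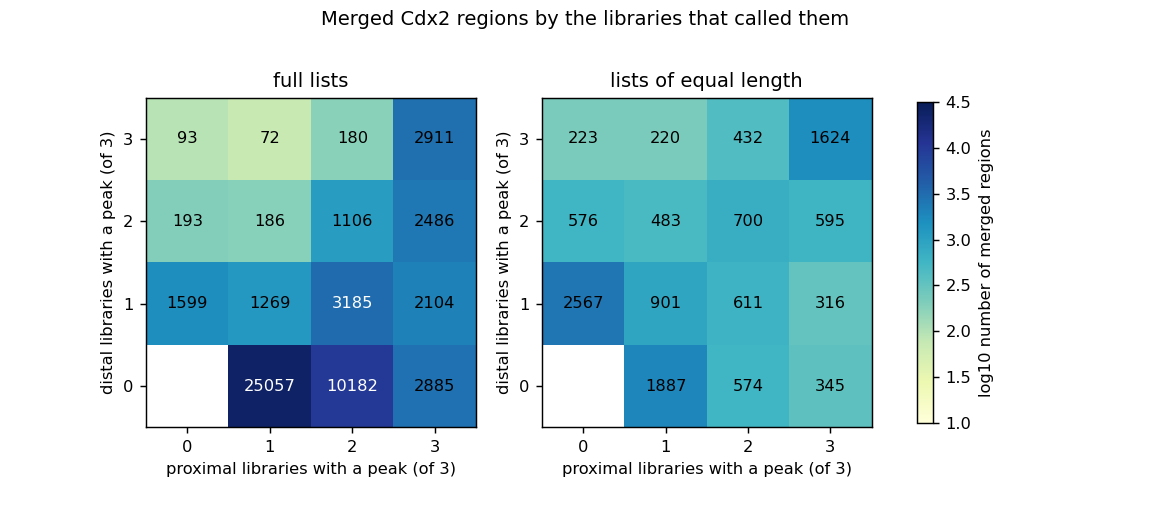
Number of merged regions by how many proximal (x axis) and how many distal (y axis) libraries called them, in the full lists on the left and in lists of equal length on the right, with colour on a log10 scale. The corner for 3 proximal and 0 distal libraries falls from 2885 to 345 regions, and the opposite corner rises from 93 to 223.

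Similarity between libraries was measured as the Jaccard index, the shared regions of a pair divided by the regions of either. At equal length, pairs of proximal libraries shared on average 0.489 of their regions, from 0.412 to 0.590. Pairs of distal libraries averaged 0.423, from 0.352 to 0.463. Pairs with 1 library of each site averaged 0.428 for the same replicate number and 0.379 for different numbers, with a range over all 9 such pairs from 0.312 to 0.456. The ranges of within-site and between-site pairs overlapped. In the full lists the within-site means were 0.349 and 0.361, against 0.256 and 0.237 between sites.

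Regions held by all 6 libraries had a median rank above the middle of every list. Their median percentile of fold was 92.7, 93.8 and 83.5 in the proximal lists and 70.6, 85.7 and 67.0 in the distal lists. The distal lists were shorter, and the part of list length in these medians was not tested. Proximal-only regions of the full lists sat in the middle of theirs, at medians of 60.4, 65.9 and 45.7, and only 3.26% to 8.46% of them reached the top decile. Distal-only regions had medians of 39.8, 66.9 and 57.2. Most regions of both classes were thus peaks of middling rank, unlike the leading ones described next.

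The 8 leading proximal-only regions had folds between 19.3 and 41.5, below the highest folds of shared regions, which reached 77.9 to 102 in the proximal lists, and 7 of them had no peak in any full distal list. In an intron of Lingo2, which encodes a neuronal leucine-rich repeat membrane protein, the folds were 30.7, 32.3 and 35.6 in proximal replicates 1 to 3. A region 570 kb from the start site of Auts2 had folds of 23.1, 32.9 and 37.2. The region 1.82 kb from Hoxb4, a Hox gene of the middle of the cluster, and 0.719 kb from the microRNA gene Mir10a had 25.4, 25.3 and 40.7. All of these stood above the 99th percentile of each proximal list, and no distal list had a peak there.

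A further leading proximal-only region lay in an intron of Il23r, the receptor subunit for interleukin 23, and 51.7 kb from the start of Il12rb2, with folds of 21.9, 25.1 and 41.5. The region 2.04 kb from Apol10a, an apolipoprotein L family gene, had 29.5, 23.1 and 27. An intronic region of Adam18, a metalloprotease-like gene of the sperm lineage, had 19.7, 23.2 and 40.7. The region beside Defb37, 0.207 kb from this beta-defensin gene, had 19.3, 27 and 23.1. A region 16.4 kb from Fmn1, a formin that nucleates actin, had 24.1, 23.8 and 22.6, and was the only one of the 8 with a full-list distal peak, of fold 6.66 in distal replicate 2.

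Distal-only regions at equal length had lower folds. The 8 leading ones had folds between 8.81 and 18.7, and 4 of them had no peak in any full proximal list. Folds of shared regions also reached less in the distal lists, 45.4 to 52.9, so folds are not on the same scale at both sites. By mean percentile within the full lists, the leading distal-only regions ranged from 89.8 to 96.4 and the leading proximal-only regions from 98.7 to 99.7. A percentile depends on list length, and the proximal lists were longer, so percentiles are not on the same scale either. The region 14.5 kb from Crnn, the gene of the squamous epithelial protein cornulin, had folds of 13.7, 14.1 and 14.5 in the distal lists and no peak in the proximal ones. The region 6.90 kb from Cyp11a1, the first enzyme of steroid hormone synthesis, had 14.5, 12.8 and 13.7, with 1 proximal peak of fold 3.58 in replicate 3. The introns of Casd1 (8.81, 18.7 and 11.5), Muc16 (9.68, 11.1 and 11.9) and Tmtc1, 68.5 kb from Ergic2 (12.3, 9.98 and 11.5), had distal peaks only. Muc16 encodes a large membrane mucin, and Casd1 an enzyme that acetylates sialic acids.

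The remaining 3 leading distal-only regions were peaks of lower rank in the proximal lists. The region 83.6 kb from Wdr11 had folds of 12.8, 10.7 and 16.2 in distal libraries and of 6.66, 6.27 and 7.05 in proximal ones. At an exon of Taf2, a subunit of the general transcription factor TFIID, the distal folds of 10.1, 11.4 and 10.7 stood against 3.79, 6.58 and 7.05. The region 271 kb from Hsfy2 had 9.26, 13.3 and 10.7 against 6.97 and 7.21 in proximal replicates 1 and 2. The choice of these regions by distal rank largely fixes that order.

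**Figure D2:**
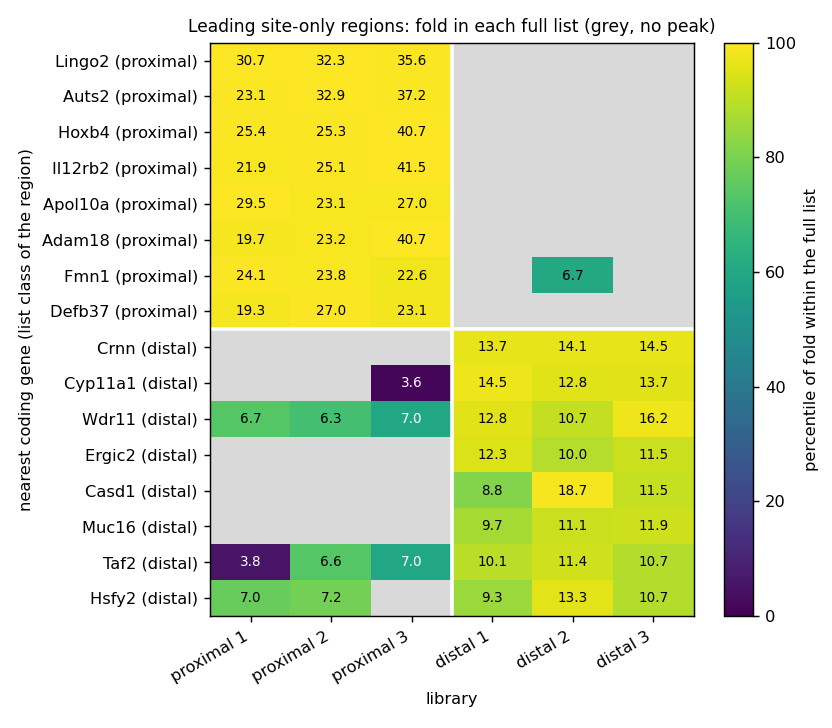
The 8 leading proximal-only and 8 leading distal-only regions at equal length (rows, named by the nearest coding gene) in the 6 full lists (columns), with the fold printed, the within-list percentile of fold as colour, and grey for no peak. The proximal block holds folds from 19.3 to 41.5, the distal block folds from 8.81 to 18.7, and 5 regions also have a peak at the other site.

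Proximal-only regions were spread over many genes. In the full lists 1676 protein-coding genes had at least 1 proximal-only region in the gene body or within 10 kb of it. Lingo2 had the most, 10 among 68 merged regions, none of which was called in all 6 libraries. Arid5b, a chromatin cofactor gene, had 7 among 17 and Adgrl3, an adhesion receptor gene, 6 among 38. Gm20388, a predicted gene model that spans 4430 kb and many other genes, had 6 among 47. Genes with 5 each included Ces1e, Dach1, Mecom, Sntg1 and Vav3. Ces1e, a carboxylesterase gene of 28.4 kb, was the shortest of these by far, with 5 of its 9 regions proximal-only. Gene length was not corrected for.

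Distal-only regions touched 58 protein-coding genes, 51 of them with 1 region each. Nxpe4 and Rgs6, a regulator of G protein signalling, had 2 each. The highest counts, 3 each, fell on the predicted genes Gm10717, Gm10718, Gm10719 and Gm10720, which lie side by side near the start of chromosome 9 within a window where Gm17535 had 2. Between 16 and 27 merged regions crowd at each of these short models, and their 10-kb flanks overlap, so that the same peaks were counted for several of them. Peaks were filtered here by chromosome only, and whether misplaced reads produced this crowding was not tested.

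Folds were compared between the sites over regions called in all 6 libraries, which are 5.44% of merged regions. Both site-only classes therefore lie outside this comparison. Quantile normalisation gives every library the same set of values, so a shift common to all regions cannot appear. After quantile normalisation of log2 fold, limma called 1 of 2911 regions higher in proximal organoids at an adjusted p under 0.05, which is 0.0344%, and 0 higher in distal organoids, or 0%. At an unadjusted p under 0.05 there were 212 and 207. With the replicate number as a block, limma called 74 and 54. Both sites were taken from the same 3 mice, but the sources used here do not say that a number marks a mouse. All proximal values lay above all distal values in 259 regions and below them in 324, on the normalised scale. The proximal minus distal difference had a standard deviation over regions of 0.409 log2 units, and 42 regions lay above 1 and 28 below -1. The called region, chr3:67559973-67560784, is intergenic and 22.3 kb from the start of Mfsd1, a lysosomal transporter gene. It had folds of 19.7, 21.0 and 19.2 in proximal and of 4.13, 6.66 and 4.69 in distal libraries. The normalised difference was 1.65 ± 0.24 log2 units (SE, n = 3 against 3), with an adjusted p of 0.04 in limma. It was also called in all 3 proximal and all 3 distal WENR-minus libraries. No region was called in any of the fits that left out 1 replicate number. The region was not in the fit at equal length, since it was absent from the shortened lists of distal replicates 1 and 2.

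Genes of the fixed lists were read by how many libraries had a summit within 3 kb of a start site, or in the gene body plus 10 kb. Over all 21728 protein-coding genes, 4.64% had a window filled in 3 of 3 proximal and 0 of 3 distal full lists, and 0.092% the reverse. At equal length, 2.33% had at least 2 more proximal than distal libraries, 1.89% at least 2 more distal, and 5.59% all 6. Of 39 Hox genes, 7 were filled in 3 against 0 full lists in the proximal direction and 1, Hoxa10, in the distal direction. At equal length 11 Hox genes leaned proximal, 1 distal, and 15 were filled in all 6. Hox genes lie close together, so 1 region can count for several of them.

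The Hoxb cluster carried most of the proximal Hox regions. Besides the region next to Hoxb4, an intronic region of Hoxb8 (chr11:96283385-96283984) had folds of 13.0, 10.7 and 14.5 in proximal libraries and none in distal ones. The region 3.48 kb from Hoxb5 had 11.1, 11.3 and 8.22, again with no distal peak. A region within Hoxb4 itself had 18.4, 16.9 and 22.7 against 5.77 and 4.69 in distal replicates 2 and 3. The region 3.85 kb from Hoxb8, within the same cluster, was instead called at both sites, with 12.4, 15.2 and 16.4 in proximal and 9.26, 11.1 and 10.7 in distal libraries. Its normalised difference was -0.05 ± 0.23 log2 units with an adjusted p of 0.95 in limma.

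In the Hoxd cluster the region 0.682 kb from Hoxd4 had folds of 18.7, 25.4 and 13.7 in proximal libraries and 1 distal peak of 7.49 in replicate 1. The region 3.42 kb from Hoxd9 had 10.1, 7.84 and 11 and no distal peak. By contrast Hoxa3, Hoxa4, Hoxa7 and Hoxc6 had a summit within 3 kb of a start site in all 6 shortened lists. Hoxa10 had its distal summits at different positions in the 3 libraries, so no single region there was distal-only. Counted by gene, the Hox genes that leaned proximal were thus all in the b and d clusters. Hoxa3 to Hoxa9 and Hoxc4 to Hoxc10 were filled at both sites, as was Hoxb9 of the b cluster, which leaned to neither site. Hoxb7 and Hoxb8 counted in both ways, with a promoter that leaned proximal and a gene window filled in all 6. A gene filled at both sites can still hold a proximal-only region. Such a region in an intron of Hoxa3 had folds of 4.75, 6.58 and 6.19 and no distal peak, and entered no shortened list.

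Of 25 intestinal identity factors, 6 were filled in all 6 shortened lists (Hnf4a, Hnf4g, Gata6, Isx, Klf5 and Tcf7l2), or 24%, against 5.59% of protein-coding genes. A further 2 leaned proximal (Ehf and Ppargc1a), or 8.0% against 2.33%, and none distal. Cdx2 itself and Prdm1, a transcriptional repressor expressed in fetal and suckling intestine, were the 2 with 3 proximal and 0 distal full lists. That is 8.0%, against 4.64% of protein-coding genes. The Cdx2 region, 2.05 kb from its start, had folds of 5.39, 4.82 and 5.71, between the 37.2 and 53.7 percentiles of the proximal lists, and it entered none of the 6 shortened lists, so the sites could not be compared there at equal length.

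Hnf4g encodes a nuclear receptor of differentiated enterocytes, and several of its regions were shared by all 6 libraries. At the region 0.153 kb from a start site, chr3:3633379-3634449, the folds were 24.7, 29.5 and 23.7 in proximal libraries and 5.81, 8.44 and 9.81 in distal ones, with no overlap. The normalised difference was 1.16 ± 0.26 log2 units (SE, n = 3 against 3), and the adjusted p in limma was 0.071, or 0.015 with the replicate block, which moves it past the threshold. Intronic regions at 15.4 and 53.2 kb from a start site had differences of 0.97 ± 0.25 and 0.93 ± 0.26, with adjusted p of 0.096 and 0.12 in limma. A further intronic region, 11.6 kb away, had 29.5, 32.9 and 22.7 against 18.5, 25.8 and 14.1 and a difference of -0.17 ± 0.25. The difference between regions of the gene was not tested.

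Of 35 colonocyte genes, 11 were filled in all 6 shortened lists, or 31.4%, against 5.59% of protein-coding genes: Car1, Krt20, Vil1, Slc26a3, Slc26a2, Aqp8, Gucy2c, Cdh17, Abcb1a, Abcg2 and Cldn7. They include a carbonic anhydrase, a keratin of surface cells, an actin bundler of microvilli, anion exchangers, a water channel and the receptor for guanylin. At Krt20 the region 1.25 kb from the start had 23.8, 21.3 and 19.5 against 7.40, 9.29 and 12.8, a difference of 0.59 ± 0.28 log2 units with an adjusted p of 0.37 in limma. Guca2a, which encodes guanylin, leaned proximal, with folds of 8.24, 5.96 and 10.2 at a region 6.05 kb away and no distal peak. Car4 and Guca2a were the 2 with 3 proximal and 0 distal full lists, or 5.71%, near the 4.64% of protein-coding genes.

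A few epithelial genes leaned distal at equal length, although the full proximal lists also had peaks there. The promoter region of Gpa33, the A33 antigen of the gut epithelium, had distal folds of 7.49, 7.55 and 5.02 against 4.88, 3.94 and 6.65, and these overlapped. Its difference was -0.50 ± 0.28 log2 units with an adjusted p of 0.45 in limma. An intron of Sytl2, a vesicle-docking gene, had 7.93, 11.5 and 8.53 against 5.41, 5.26 and 6.65, and its difference of -0.97 ± 0.23 had an adjusted p of 0.083. An intron of Lrig1, a receptor-restraining protein of stem cells, had 7.08, 10.2 and 11.2 against 5.07, 5.97 and 5.09, and its difference of -1.12 ± 0.25 had an adjusted p of 0.071 in limma. In Sytl2 and Lrig1 every distal value lay above every proximal value, but neither passed the threshold without the replicate block. With it the adjusted p in limma was 0.028 and 0.016. Mme, an intestinal peptidase, had 6.97, 8.88 and 6.83 in distal libraries against 4.44 and 3.50 in proximal replicates 1 and 2. Cdhr5 and Muc13 were the other colonocyte genes that leaned distal. With Gpa33 they made 3 of 35, or 8.57%, against 1.89% of protein-coding genes. Only Guca2a of that list leaned proximal, or 2.86% against 2.33%.

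The remaining lists held few such genes, and shares over all protein-coding genes were 4.64% for 3 proximal against 0 distal full lists, 2.33% and 1.89% for leaning proximal and distal, and 5.59% for all 6 shortened lists. Of 26 small-intestinal absorption genes, Fabp2 and Slc5a1 had 3 proximal and 0 distal full lists at the promoter, Mme leaned distal, and Slc10a2, Mgam and Cubn were filled in all 6 shortened lists. Of 25 stem cell and Wnt target genes, Tnfrsf19 had 3 proximal and 0 distal full lists, Lrig1 leaned distal, and Cd44, Rnf43 and Prom1 were filled in all 6. Of 16 goblet cell genes, Sytl2 leaned distal and Zg16 was filled in all 6. None of 16 enteroendocrine genes met any of these criteria. Of 11 genes engineered or followed in the study, Cdx2 and Apc had 3 proximal and 0 distal full lists and Hnf4a, Vil1 and Car1 were filled in all 6. Among 18 mesenchymal, blood and neural genes, none was filled in all 6 shortened lists, Pecam1 and Ptprc leaned proximal (11.1%) and Col1a2 distal (5.56%). The share leaning proximal was thus above that over all genes in this list of genes of other cell types too.

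**Figure D3:**
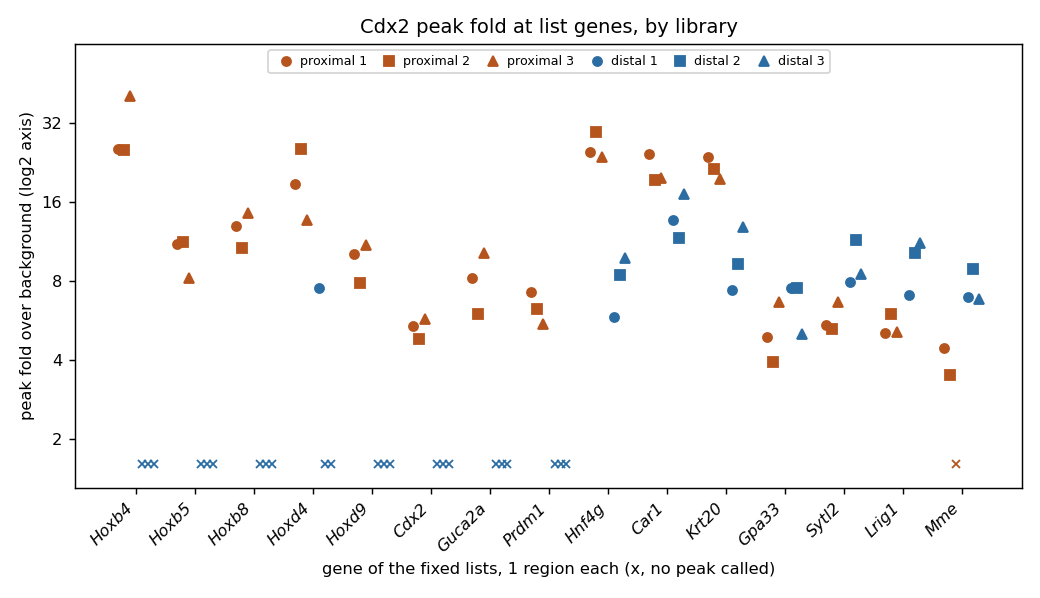
Peak fold over background (log2 axis) at 1 region for each of 15 list genes (x axis), with proximal libraries in orange, distal in blue, a symbol for each replicate number and a cross where no peak was called. From Hoxb4 to Prdm1 the region with the largest difference in calls between the sites is shown. From Gpa33 to Mme it is the region with the largest distal excess of calls at equal length. That choice largely fixes the order of the sites at these genes. From Hoxb4 to Prdm1 the distal libraries have at most 1 peak, at Hnf4g and Krt20 proximal values lie above distal ones, and at Sytl2 and Lrig1 below them.

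At equal length 20.6% of proximal-only regions lay within 3 kb of an annotated start site, against 17.0% of distal-only and 22.9% of regions called in all 6 libraries, with Wilson 95% intervals of 16.6% to 25.2%, 12.7% to 22.5% and 20.9% to 25%. These intervals cover counting error only. Introns held 38.6%, 42.6% and 36.1% and intergenic sequence 38.8%, 38.1% and 39.0%. The median distance to a protein-coding start site was 20.9, 17.5 and 18.5 kb. Median width differed more, at 690 bp for proximal-only, 434 bp for distal-only and 854 bp for regions in all 6.

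Cdx2 cores were common at summits of every library. Within 50 bp of the summit, 60.6%, 55.7% and 52.4% of peaks in the full proximal lists and 64.6%, 57.2% and 52.8% in the full distal lists had a core. Windows 1000 bp away had one in 9.85% to 11.8%. The difference of the means was -1.96 percentage points (exact two-sided permutation test, p = 0.6, where 0.1 is the smallest value 3 against 3 can give). At equal length the shares were 72.6%, 68.9% and 60.5% against 67.4%, 64% and 52.8%, and the difference turned to 5.95 points (exact permutation p = 0.4). None of 20 motif comparisons had an adjusted p below 0.737 in the full lists or below 0.909 at equal length.

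Among the classes at equal length, 71.0% of proximal-only regions (Wilson 95% interval 66% to 75.5%) and 50.2% of distal-only regions (43.7% to 56.7%) had a core, against 77.0% (74.9% to 79.0%) of those in all 6. TTTATGG was present in 25.5%, 17.0% and 22.0%. In the full lists the shares with any core were 56.6% for proximal-only and 51.6% (41.6% to 61.5%) for distal-only regions. The site TGAGTCA of AP-1, a factor pair of the Fos and Jun families, was present at equal length in 2.90% (1.58% to 5.25%), 9.42% (6.24% to 14.0%) and 6.22% (5.14% to 7.5%). In the full lists it was in 4.89% (4.16% to 5.74%) of proximal-only and 5.38% (2.32% to 12.0%) of distal-only regions, with overlapping intervals. It stood at 1.38% to 1.73% in windows 1000 bp away. The 2 classes also differed in the strength of their peaks, as given above for the weakest peak kept and for width, and the part of strength in these shares was not tested.

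**Figure D4:**
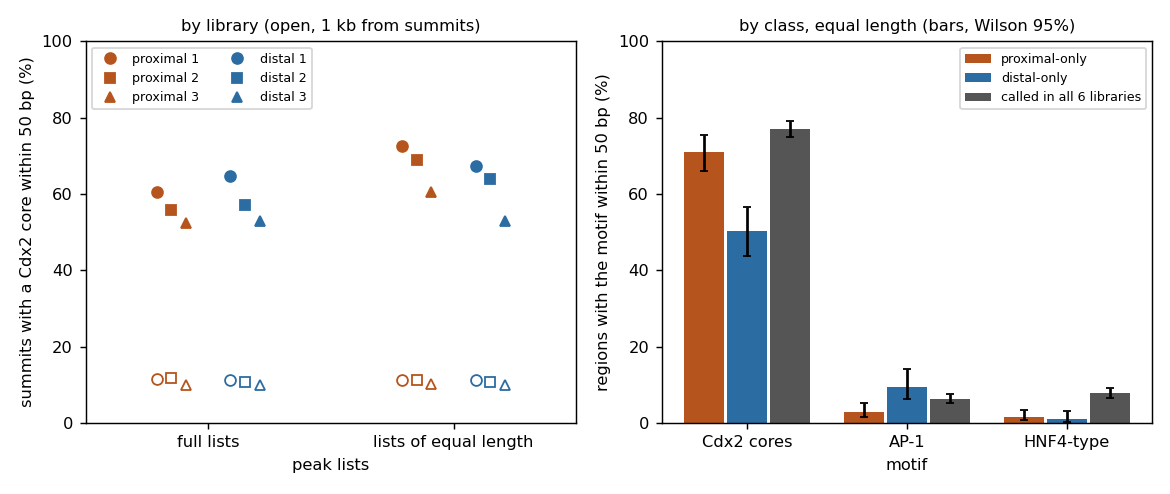
Left, share of peak summits with a Cdx2 core within 50 bp for each library (filled symbols; open symbols, windows 1 kb away); right, share of regions at equal length with a Cdx2 core, the AP-1 site or the HNF4-type site by class, with Wilson 95% intervals. The library shares lie between 52.4% and 72.6% without a steady order of the sites, while distal-only regions have fewer cores (50.2%) and more AP-1 sites (9.42%) than proximal-only regions (71.0% and 2.90%) at equal length. In the full lists the AP-1 shares were 5.38% and 4.89%.

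A repeated sequence was found at many regions common to both sites. The HNF4-type site CAAAGGTCA stood within 50 bp of the summit in 7.76% of regions called in all 6 shortened lists (Wilson 95% interval 6.55% to 9.16%), in 1.45% of proximal-only and in 0.897% of distal-only regions. None of the windows 1000 bp from those shared summits held it. In the full lists it was in 159 of the 2911 shared regions, and a majority sequence drawn from those copies after the data were seen is shown with 2 of the strongest. Capitals mark CAAAGGTCA and Cdx2 cores, and the last 3 letters of the site are also the first of the core TCATAAA, which reads TTTATGA on the other strand.
Majority sequence of the 159 copies: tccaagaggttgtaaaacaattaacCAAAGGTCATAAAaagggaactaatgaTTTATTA
Intron of Mei1, chr15:82119250-82119308, minus strand: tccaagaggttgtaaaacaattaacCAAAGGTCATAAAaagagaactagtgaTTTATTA
Beside Casp1, chr9:5286226-5286284, plus strand: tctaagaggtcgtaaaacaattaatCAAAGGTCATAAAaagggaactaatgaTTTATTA

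The copy in Mei1 had folds of 53.2, 72.1 and 34.8 in proximal and of 31.8, 35.1 and 22.0 in distal libraries, and the copy 12.3 kb from Casp1, an inflammasome protease gene, had 61.5, 92.5 and 30.9 against 45.4, 30.1 and 23.5. Both ranked above the 99th percentile in all 6 lists. On chromosomes 1 to 19 and X there were 35800 copies of CAAAGGTCA, and 412 of them matched the majority sequence at 70% or more of the 25 bases on each side. Of these 412, 352 lay under a peak of at least 1 library, or 85.4%, against 1.73% of the other copies. Most of the other copies had no Cdx2 core within 25 bases, and the shares depended on the core. With a core, 328 of 368 copies in the shared context (89.1%) and 188 of 1548 other copies (12.1%) lay under a peak. Without one, 24 of 44 (54.5%) and 423 of 33840 (1.25%) did. Leaving out the 115 copies called in all 6 libraries, the class from which the majority sequence was drawn, 237 of 297, or 79.8%, lay under a peak. Only 4 of the 412 were proximal-only, and 0 were distal-only. Soft-masked repeat sequence held 378 of them. Reads from near-identical copies can be placed at the wrong one, and how the aligner treated such reads is not given in the sources used here.

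Whether the site-only classes were kept in other libraries was asked of the 6 WENR-minus lists, which took no part in defining them. Of 2885 proximal-only regions, proximal WENR-minus libraries called 83.8%, 51% and 61.5% and distal ones 27.6%, 9.84% and 15.1%. Of 93 distal-only regions, distal WENR-minus libraries called 82.8%, 61.3% and 65.6% and proximal ones 19.4%, 3.23% and 8.60%. In both classes each library of the same site lay above each library of the other site. The means for proximal-only regions were 65.4% ± 16.7 and 17.5% ± 9.09 (SD, n = 3 each), a difference of 47.9 points, and for distal-only regions 10.4% ± 8.21 and 69.9% ± 11.4, a difference of -59.5 points. The exact two-sided permutation p was 0.1 for both, the smallest that 3 against 3 can give. With replicate 3 left out, the proximal-only class was redrawn from the other replicates and held 12160 regions in place of 2885. For that larger class the difference was 24.1 points and the groups overlapped (exact permutation p = 0.667, where 0.333 is the smallest value 2 against 2 can give). The WENR-minus cultures came from the same mice in another medium, so they add no further animals.

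At equal length the proximal-only regions were called in 87.8%, 78.3% and 89.3% of cases by proximal and in 16.2%, 21.4% and 30.4% by distal WENR-minus libraries. For distal-only regions the shares were 54.3%, 66.4% and 73.5% in distal and 18.4%, 9.87% and 23.8% in proximal libraries. Again the groups did not overlap and the exact permutation p was 0.1. Regions called in all 6 shortened lists were called in 90.02% to 96.1% of cases by proximal and in 85.2% to 93.0% by distal WENR-minus libraries, and these ranges overlapped (exact permutation p = 0.2). All 8 leading proximal-only regions were in all 3 proximal WENR-minus lists and 5 of them in no distal one. The regions near Apol10a and Fmn1 were the ones called in all 3 distal WENR-minus lists. All 8 leading distal-only regions were in all 3 distal WENR-minus lists, and 5 were in no proximal one.

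**Figure D5:**
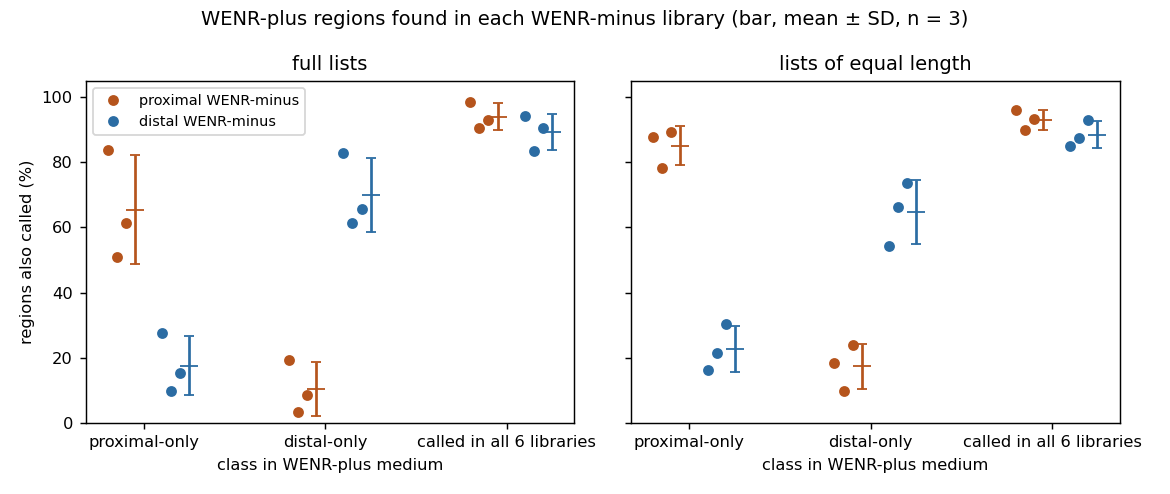
Share of regions of each WENR-plus class (x axis) called in each WENR-minus library, proximal in orange and distal in blue, with the mean ± SD of 3 libraries beside the points, in full lists (left) and lists of equal length (right). Proximal-only regions lie at 51% to 83.8% in proximal and 9.84% to 27.6% in distal full lists, distal-only regions show the reverse order, and regions called in all 6 libraries lie at 83.4% or more.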

How the data were processed

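Cdx2 ChIPmentation, a ChIP-seq method in which libraries are made with transposase on the bead, was measured in 3 proximal and 3 distal WENR-plus organoid samples. According to the submitters' processing notes and the study's methods, Trimmomatic 0.39 was used for trimming and Bowtie2 2.4.5 for alignment to mm10. Duplicate reads were discarded with SAMtools 1.13, and MACS2 2.2.7.1 called each library's peaks against its own input at a q-value of 0.01. These versions are those of the processing notes, and the study's software list gives earlier ones for Bowtie2 and SAMtools. The deposited lists give for each peak a fold ratio over local background, −log10 p and −log10 q, and a score that is derived from q by the authors' caller. Read totals were not used here.

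Peaks on chromosomes 1 to 19 and X were merged at an overlap of 1 bp. Lists of equal length held the 5604 peaks of highest −log10 p. Promoters were 3 kb to each side of GENCODE vM21 start sites, and sequence came from GRCm38.p6. Shares and counts per library were compared by exact permutation. Log2 folds of regions called in all 6 libraries were quantile-normalised and fitted with limma 3.58.1 in R 4.3.3, tested first on simulated data. The labels number the libraries as biological replicates, and the study's methods describe organoids of 3 mice for both sites. No source used here ties a number to a mouse, so the numbers were not treated as pairs, and p-values measure the spread between these samples.

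Named regions were the 8 of each class with the highest mean percentile of fold at equal length and those called by limma. Named genes were the 8 with most site-only regions (with ties, of which not all are reported here) and list genes whose libraries differed by 3 of 3 in full lists or by 2 or more at equal length, or that were filled in all 6. The comparison, gene lists and motifs were chosen with earlier results of these data known. Alternatives were stricter −log10 q and fold, equal length, leaving out each replicate number, a replicate block, other promoter definitions and a wider motif window.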

Additional observations from a re-analysis of the deposited data

Results flagged for a closer look

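Peaks outside chromosomes 1 to 19 and X entered no comparison. The proximal lists held 86, 118 and 88 of them in replicates 1 to 3 and the distal lists 111, 111 and 85, all above the limit that a count of 0 allows. Most were on unplaced contigs, from 66 to 95 per list, with 4 to 15 on chromosome Y and 6 to 9 on the mitochondrial genome. As a share of the list they made up 0.268% to 0.644% in proximal and 0.824% to 1.49% in distal libraries.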

How the results depend on the processing

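Peak number, promoter share and carry-over kept their direction under every alternative run, but no such test can pass the threshold with 3 against 3. Peak number (difference 1.69 in log2) ranged from 1.47 to 1.89 when 1 replicate number was left out, promoter share (-2.11 points) from -2.57 to -1.35, motif share from -2.74 to -0.944, proximal-only carry-over from 24.1 to 42.0 points and distal-only carry-over from -52.4 to -44.6. These carry-over values are for classes redrawn from the remaining replicate numbers. The proximal-only value was the lowest, 24.1, without replicate 3, where that class held 12160 regions. Motif share turned to 5.95 points at equal length. Proximal-only regions numbered 13067 when at least 2 of 3 libraries sufficed, 1691 at a fold of at least 5, 345 at equal length, and 3930 to 12160 with 1 replicate number left out, highest without replicate 3. Distal-only regions numbered 286, 94, 223, and 146 to 288, highest without replicate 1. With 2 alternatives chosen after seeing the data, matching by summits within 150 bp gave 2621 and 82, and requiring absence from the other site's full lists at equal length gave 210 and 43. Half-overlap changed nothing, because every peak lies wholly within its merged region. limma called 17 proximal-higher and 0 distal-higher regions with percentiles, 12 and 15 with −log10 p, 0 and 0 at −log10 q of at least 5 or at equal length, and 0 to 0 in both directions with 1 replicate number left out. With a replicate block limma called 74 and 54 regions, among them those of Hnf4g (adjusted p 0.015), Lrig1 (0.016) and Sytl2 (0.028). Same-numbered libraries had deviations correlated at 0.184, 0.0491 and 0.453 over 2911 regions, which does not show that the numbers pair the samples although both sites came from the same 3 mice, and not every sample correlated best with its own number. With the block, peak number, promoter share, motif share and carry-over kept their differences at a sign-flip p of 0.25, the smallest 3 pairs can give.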
